A study of Mus musculus with 6 samples.

Results

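Interferon-stimulated genes, the genes that cells switch on when interferon binds its receptors, were followed in 6 poly(A) RNA libraries labelled as mouse embryonic stem cells. The set was given by name as 57 genes, the interferon receptors among them, and 56 of the 57 were found by symbol among the 17912 genes of the deposited table. Ifih1-ps had no row and was not analysed here. By their labels, 3 libraries are controls of wild-type genotype (replicates 1, 2 and 3). The other 3 are Exosc2 knockdown clones named for a short hairpin RNA, shEXOSC2 (clones 5, 6 and 7). The EXOSC2 protein belongs to the RNA exosome, the complex that processes and breaks down RNA 3′ to 5′. Each knockdown library is 1 clone, no interferon treatment is named, and the labels do not say whether controls carried a hairpin, which parental line was used or whether replicates were separate cultures. The effect of the hairpin and other differences between these lines cannot be told apart, and the p-values rest on the spread among these 6 libraries, which may be technical. The lines also differed in cell type markers, with several embryonic stem cell markers absent or nearly so in the clones (values further on).

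Type I interferons bind the receptor IFNAR1/IFNAR2, whose kinases JAK1 and TYK2 activate the transcription factor complex ISGF3. STAT2 and IRF9 are part of this complex, which binds the interferon-stimulated response element (ISRE) near the start of its target genes. Interferon gamma binds IFNGR1/IFNGR2 and acts on genes that carry the gamma-activated sequence (GAS). The products block viruses at entry, replication and translation, sense foreign nucleic acid or feed back on the pathway itself. Pluripotent stem cells are known for a weak response to interferon and for keeping some of these genes on without it.

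RefSeq promoter windows (GRCm38.p6, 250 bases before to 50 after the start) were available for 46 of the members and were searched for the ISRE core (GAAA, any 2 bases, GAAA) on both strands and for the GAS core (TTC, any 3 bases, GAA), which reads alike on both. The ISRE core was found in 17 of 46 members (37.0%), against 3.99% of 27025 genes with a window, and the GAS core in 12 of 46 (26.1%), against 9.55%. Of the members that rose in the clones, 32 had a window and 8 of these held the ISRE core. Of those that did not pass the test, 12 had a window and 9 held it. These are counts of letters, not of bound sites, and no test was made of them. These 8 matches are printed for members that did not pass (Isg15, Irgm1, Ifit3, Ifit3b and Ddx60) and for members that rose (Oas3, Gbp2 and Ifitm3). Each reads 5′ to 3′ on the strand that carries the GAAA repeats, with the core in capitals.
Isg15: aggaaaagGAAACCGAAAcagaaaat
Irgm1: aagaaataGAAACCGAAActgattct
Ifit3: ggaaagtaGAAACTGAAAcagactta
Ifit3b: ggaaagtaGAAACTGAAAcagactta
Ddx60: gcagaagaGAAACCGAAActatcctt
Oas3: agggaggaGAAAACGAAAgtgaaggg
Gbp2: aagacagtGAAAGTGAAActaaaaga
Ifitm3: acttctgaGAAACCGAAActgccgca
The stretches lie at chr4:156200873-156200898 (minus strand), chr11:48871427-48871452 (minus strand), chr19:34583399-34583424 (minus strand), chr19:34607795-34607820 (minus strand), chr8:61928060-61928085 (plus strand), chr5:120777717-120777742 (minus strand), chr3:142620596-142620621 (minus strand) and chr7:141010708-141010733 (minus strand), in that order. The Ifit3 and Ifit3b stretches hold the same letters, as these neighbouring genes are near copies of each other. Both cores occurred in 5 members, and in 2 of them, Ifitm3 and Bst2, an ISRE and a GAS match share letters. Of the 4 receptor genes, none held the ISRE core.

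The libraries held 21107761 to 26494985 recovered reads. Levels are scaled counts, listed for control replicates 1, 2 and 3 and then for clones 5, 6 and 7, or given as mean ± SD (n = 3 libraries per group). Log2 fold changes compare shEXOSC2 with control as log2(scaled count + 1), ± SE, with Benjamini-Hochberg adjusted p-values from limma over all 15179 genes with a mean of at least 10. Genes with an adjusted p under 0.05 are said to have risen or fallen. Exosc2 itself (chromosome 2, 31670715 to 31681349 in GRCm38) measured 2457, 2473 and 1954 in the controls and 1138, 997 and 981 in the clones, with no overlap (log2 fold change -1.14 ± 0.13, adjusted p = 5.1e-05 in limma). A two-sided exact permutation test returned p = 0.1, its lower limit with 3 libraries on each side.

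Most interferon-stimulated genes were higher in the clones. Of the 56 in the table, 55 passed the filter on low values. Among these, 39 rose, 1 fell and 15 did not pass the test, where 35.2% of all tested genes rose and 38.3% fell (73.5% either way). The median log2 fold change was 1.32 over the members and -0.07 over all tested genes. A rise of at least 2-fold was seen in 36 of the 55, against 22.4% of all tested genes, and a fall of that size in 1, against 25.7%. On recovered reads edgeR also counted 39 higher and 1 lower, against 34.2% and 39.3% of all genes, and DESeq2 38 and 1, against 34.4% and 39.0%. The clones lay above every control in 42 members (36.7% of all tested genes) and below every control in 1 (40.6%). Control replicate 3 stood apart for this set, with lower values than the other controls for most members (its values are given further on). Without it, 40 members rose, 5 fell and 10 did not pass, against 36.4% rising and 39.3% falling among all genes, and the members' median was 0.96. For the 24 members at least 2-fold under the other controls in this library, values without it are given beside the result or further on. Some other members also changed without it, such as Irf7 (2.09 to 1.78), and not all such values are given.

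**Figure D1:**
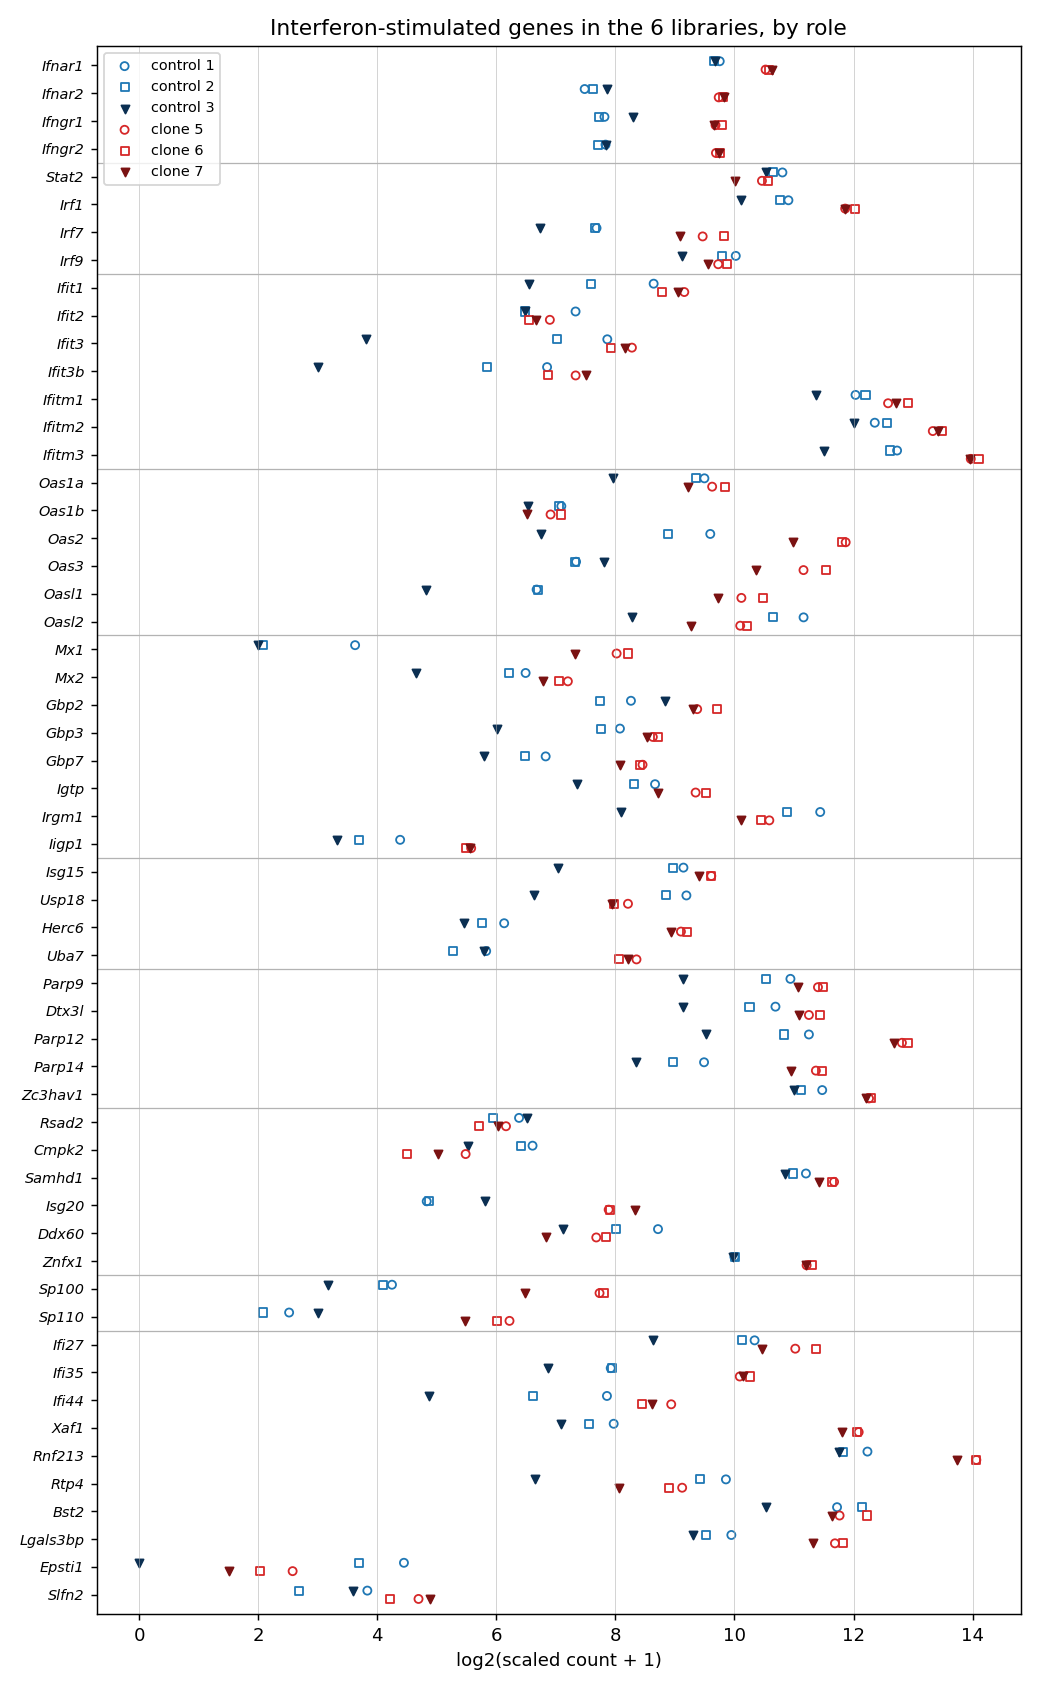
Scaled counts of the 56 interferon-stimulated genes in each library, as log2(scaled count + 1) on the x axis, with genes grouped by role and separated by grey lines. Blue symbols are controls and red symbols are clones; filled triangles mark control 3 and clone 7. In 44 of the 55 tested genes control 3 was the lowest control (34.4% of all tested genes). In 42 all clones lay above all controls (36.7% of all tested genes).

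All 4 receptor genes rose (median log2 fold change 1.85), where 35.2% of all tested genes rose. Ifnar1, a chain of the type I receptor (ENSMUSG00000022967.12, chromosome 16, 91485238 to 91507441 in GRCm38), measured 862, 809 and 818 in the controls and 1470.3, 1524 and 1587 in the clones, a log2 fold change of 0.88 ± 0.10 (adjusted p = 5.9e-05 in limma). The gene of its partner chain, Ifnar2, rose from 178, 197 and 231 to 852, 895 and 901 (2.13 ± 0.15, 4.37-fold by the group means). Ifnar2 overlaps Gm21970 on the same strand, which leaves part of its count uncertain. For the interferon gamma receptor, Ifngr1 went from 224, 212 and 312 to 821, 889 and 802 (1.76 ± 0.17) and Ifngr2 from 227, 208 and 228 to 825, 868 and 851 (1.93 ± 0.13). In none of the 4 was control replicate 3 the lowest control, and without it the values were 0.87, 2.23, 1.93 and 1.96 in that order. Ifnar1, Ifnar2 and Ifngr2 lie together on chromosome 16, whose genes had a median log2 fold change of 0.16. With chromosome medians subtracted the 4 values were 0.73, 1.98, 1.58 and 1.79.

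Of the 4 transcription factor genes, 2 rose and 2 did not pass (median 0.70), where 35.2% of all tested genes rose. Irf1, an early target of interferon gamma, rose from 1919, 1742 and 1105 to 3717, 4166 and 3727 (1.32 ± 0.19, adjusted p = 2.6e-04 in limma). Irf7, which amplifies the type I response, rose from 205, 202 and 105 to 706, 901 and 541 (2.09 ± 0.29). Both groups kept apart for these 2 genes. Stat2 and Irf9 did not pass. Stat2 measured 1789, 1611 and 1484 and 1409.6, 1514 and 1031 (-0.32 ± 0.16, adjusted p = 0.099 in limma), with clone 7 lowest. With chromosome centring and with quantile normalization Stat2 passed as lower, at -0.50 and -0.54. Irf9 measured 1039, 881 and 557 and 847, 935 and 752, and all 3 clones lay inside the range of the controls. Its log2 fold change was 0.07 ± 0.22. With chromosome centring, which subtracts the chromosome 14 median of -0.57, it was 0.65 and passed. Irf9 and Rnf31 overlap on the same strand and Irf7 overlaps Phrf1 on the opposite strand, and the sources used here do not say whether counting used strand, so part of these counts is uncertain.

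Of the 7 IFIT and IFITM genes 4 rose and 3 did not pass (median 1.40), where 35.2% of all tested genes rose. The genes of the membrane-associated IFITM proteins, which block virus entry, carried the highest RNA levels of the set. Per kilobase of annotated exon, Ifitm2 and Ifitm3 stood at 7852 ± 1472 and 7834 ± 3123 scaled counts in the controls and at 16648 ± 913 and 24338 ± 1354 in the clones. Ifitm1 followed at 3517 ± 983 and 6259 ± 722, and Bst2, the tether that holds budding virions, at 3464 ± 1706 and 4230.2 ± 933. In the controls, neighbours in this order (Ifitm2 and Ifitm3, Ifitm1 and Bst2) did not differ beyond their spread, while in the clones Ifitm3 exceeded Ifitm2. Ifitm3 rose from 6801, 6245 and 2888 to 16041, 17559 and 15904 scaled counts (1.73 ± 0.28, adjusted p = 5.2e-04 in limma). Ifitm2 rose from 5245, 6052 and 4132 to 10310.1, 11506 and 10898 (1.10 ± 0.14) and Ifitm1 from 4192, 4708 and 2643 to 6124, 7690.3 and 6727 (0.87 ± 0.20). As close paralogs these 3 genes may have traded reads in counting, which leaves their separate levels uncertain. Ifitm2 also overlaps Gm45717 on the same strand.

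The IFIT genes, whose products bind foreign RNA ends and hold back translation, lie side by side on chromosome 19 and differed widely between controls. Ifit1 (chromosome 19, 34640871 to 34650009 in GRCm38) rose from 399, 191 and 92.4 to 570.0, 438 and 530.5 (1.40 ± 0.44, adjusted p = 0.018 in limma), or 0.88 without control replicate 3. This call was lost without control replicate 2 and with chromosome centring (log2 fold changes 1.40 and 1.02). Ifit3 measured 232, 129 and 13.1 in the controls and 309, 243 and 284 in the clones, so its controls differed by 17.8-fold among themselves. The clones lay above all controls, but the log2 fold change of 1.89 ± 0.87 did not pass (adjusted p = 0.076 in limma) and was 0.68 without control replicate 3. Ifit3b, the near copy, ran the same way, with 115, 56.2 and 7.03 and 160.2, 116 and 179.9 (2.003 ± 0.82, adjusted p = 0.053 in limma, and 0.89 without control replicate 3). Without control replicate 1 both genes passed as higher, at 2.71 and 2.81. Ifit3b also passed with a pseudocount of 5 and with quantile normalization (1.80 and 2.83). Ifit2 measured 160.0, 88.6 and 88.4 and 118, 92.5 and 101, with overlapping groups (-0.06 ± 0.28).

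The OAS genes divided into 3 that rose and 3 that did not pass (median 1.89), where 35.2% of all tested genes rose. Some but not all products of this family make the 2′-5′-linked oligoadenylates that activate RNase L. Oas3 (chromosome 5, 120753098 to 120777661 in GRCm38) rose from 161, 159 and 224 to 2287, 2969 and 1314 (3.53 ± 0.29, adjusted p = 6.0e-06 in limma, 12.1-fold by the means). Oas2 rose from 772, 473 and 106 to 3737, 3564 and 2025 (3.14 ± 0.63, 2.31 without control replicate 3 and 3.73 without control replicate 1). Oasl1, which binds Irf7 mRNA and limits its translation, rose from 101, 103 and 27.1 to 1109, 1431 and 844 (4.05 ± 0.48, and 3.42 without control replicate 3). In each of these 3 genes clone 7 was the lowest clone. Oas1a measured 721, 652 and 247 and 789, 916 and 597, overlapping (0.63 ± 0.38, adjusted p = 0.16 in limma). Oas1b, annotated as a polymorphic pseudogene because some mouse strains carry a truncated allele, measured 135, 132 and 91.4 and 119, 135 and 90.4 (-0.06 ± 0.25). Oasl2 measured 2289, 1609 and 308 and 1094, 1178 and 613, the clones lying between control replicate 3 and the other two (-0.17 ± 0.65, adjusted p = 0.82 in limma). Without control replicate 3 Oasl2 passed as lower in the clones, at -1.05 (adjusted p = 0.018 in limma). Over the fits with a library left out, its values ran from -1.05 to 0.39. The Oas1 genes are paralogs that may have traded reads in counting, which leaves their counts uncertain.

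The 8 MX, GBP and IRG genes encode interferon-induced GTPases. Of these, 7 rose and 1 did not pass (median 1.29), where 35.2% of all tested genes rose. The largest fold change of any tested member was that of Mx1, whose product traps viral ribonucleoproteins. Mx1 (chromosome 16, 97447035 to 97462907 in GRCm38) measured 11.4, 3.24 and 3.01 in the controls and 259, 296 and 159.6 in the clones (5.28 ± 0.47, adjusted p = 1.0e-05 in limma). The value was 4.52 with a pseudocount of 5 and 6.36 with quantile normalization. Mx2, annotated as a polymorphic pseudogene, rose from 89.0, 73.4 and 24.1 to 146, 132 and 109.8 (1.23 ± 0.45), or 0.66 without control replicate 3 and 1.86 with quantile normalization. Its call was lost without any 1 of clones 5, 6 and 7 (1.13, 1.21 and 1.34), with eBayes without trend and with chromosome centring.

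The genes of the guanylate-binding proteins rose in all 3 cases, against 35.2% of all tested genes. These proteins attack the vacuoles and membranes of intracellular microbes. Gbp7 went from 113, 88.6 and 54.2 to 350.2, 341 and 270.3 (1.95 ± 0.28, adjusted p = 2.1e-04 in limma). Gbp2 went from 306, 213 and 453 to 663, 838 and 633 (1.19 ± 0.26), and here control replicate 3 was the highest control. Gbp3 went from 269, 215 and 63.3 to 395, 418 and 367 (1.34 ± 0.47), or 0.71 without control replicate 3. The Gbp3 call was lost without clone 5, 6 or 7 (1.34, 1.30 and 1.39), with quantile normalization and with eBayes without trend.

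Of the immunity-related GTPases, Igtp rose from 405, 318 and 163 to 651, 738 and 418 (1.08 ± 0.34), or 0.70 without control replicate 3. That call was lost without clone 5 or clone 6 (1.01 and 0.92), and Igtp overlaps its paralog Irgm2 on the same strand. Iigp1 was low in every library, at 19.9, 11.9 and 9.04 and 46.8, 44.2 and 46.1, and rose (1.74 ± 0.32, and 3.32 with quantile normalization). Irgm1, a regulator of the other family members and of autophagy (chromosome 11, 48861968 to 48871683 in GRCm38), measured 2779, 1889 and 272 in the controls and 1536, 1392 and 1106 in the clones. The controls thus differed 10.2-fold among themselves and enclosed all clones (0.24 ± 0.72, adjusted p = 0.77 in limma). Without control replicate 3 Irgm1 passed as lower, at -0.78 (adjusted p = 0.012 in limma). Over the fits with a library left out, its values ran from -0.78 to 0.89.

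The ISG15 system attaches the ubiquitin-like protein ISG15 to other proteins. Of its 4 genes 2 rose (median 1.87), against 35.2% of all tested genes. Uba7, the activating enzyme gene, rose from 55.9, 37.8 and 54.2 to 326, 265 and 297 (2.58 ± 0.22), and Herc6, the ligase gene, from 69.1, 52.9 and 43.2 to 548, 586 and 491 (3.30 ± 0.21, adjusted p = 1.7e-06 in limma). Uba7 overlaps Gm20661 on the same strand, which leaves part of its count uncertain. The modifier gene Isg15 (chromosome 4, 156199424 to 156200818 in GRCm38) measured 564, 501 and 131 and 781, 782 and 678, with every clone above every control. It did not pass (1.16 ± 0.48, adjusted p = 0.055 in limma), and without control replicate 3 it passed with a smaller log2 fold change of 0.49. Isg15 also passed without control replicate 1 or 2 (1.54 and 1.45), with a pseudocount of 5, with DESeq2 and with chromosome centring. Usp18, which removes ISG15 and also shuts off IFNAR2 signalling, measured 584, 462 and 98.4 and 295, 251 and 245 (-0.18 ± 0.57, adjusted p = 0.78 in limma). Without control replicate 3 Usp18 passed as lower, at -0.98 (adjusted p = 0.0016 in limma). Over the fits with a library left out, its values ran from -0.98 to 0.30.

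All 5 genes of the ADP-ribosylation group rose (median 1.23), where 35.2% of all tested genes rose. Parp12 went from 2436, 1821 and 731 to 7195, 7681 and 6586 (2.27 ± 0.37, adjusted p = 5.1e-04 in limma) and Parp14 from 718, 501 and 325 to 2642, 2835 and 1966 (2.32 ± 0.27). Zc3hav1, which encodes the zinc-finger antiviral protein ZAP that binds CpG-rich viral RNA, went from 2844, 2234 and 2049 to 4905, 5013 and 4757 (1.06 ± 0.13, and 0.67 with chromosome centring). ZAP is also known to recruit the RNA exosome. Parp9 (chromosome 16, 35938470 to 35972605 in GRCm38) and Dtx3l (chromosome 16, 35926511 to 35939151 in GRCm38) encode partners in one complex, overlap on opposite strands, and both were lowest in control replicate 3. Parp9 went from 1964, 1479.6 and 562 to 2707, 2865 and 2137 (1.11 ± 0.40), and Dtx3l from 1649.7, 1219 and 559 to 2436, 2759.7 and 2162 (1.23 ± 0.34). Without control replicate 3 the 2 values were 0.58 and 0.78. The Parp9 call was lost without clone 5 or 6 (1.07 and 1.03), under quantile normalization, under chromosome centring and with eBayes without trend.

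Of 6 tested genes of nucleotide and RNA metabolism 3 rose, 1 fell and 2 did not pass (median 0.13). Among all tested genes 35.2% rose and 38.3% fell. Cmpk2, a mitochondrial nucleotide kinase gene (chromosome 12, 26469204 to 26479837 in GRCm38), fell from 96.6, 84.2 and 45.2 to 43.8, 21.6 and 31.4 (-1.18 ± 0.37, adjusted p = 0.018 in limma). The highest clone and the lowest control were close. This call was lost without control replicate 1, control replicate 2 or clone 6 (-0.97, -1.07 and -0.93) and with quantile normalization (-0.34). Its neighbour Rsad2, which encodes viperin, measured 82.4, 60.5 and 90.4 and 70.6, 51.4 and 64.6, overlapping (-0.31 ± 0.25). Isg20, an RNA exonuclease gene, rose from 27.5, 28.1 and 55.2 to 236, 240.4 and 321 (2.88 ± 0.31, adjusted p = 3.3e-05 in limma), with control replicate 3 the highest control. Samhd1, which hydrolyses deoxynucleotides, rose from 2353, 2027 and 1843 to 3266, 3195 and 2753 (0.57 ± 0.12). Znfx1, a helicase and RNA sensor gene, had the narrowest controls of the set, at 1023, 1030.3 and 1008, and rose to 2372, 2531 and 2342 (1.24 ± 0.10). Znfx1 overlaps Zfas1 on the opposite strand. Ddx60, another helicase gene, measured 419.5, 256 and 138 and 204, 229 and 113, overlapping (-0.49 ± 0.41).

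The nuclear body genes Sp100 and Sp110 were low in the controls and rose. Sp100 went from 17.99, 16.2 and 8.04 to 212, 222 and 88.6 (3.50 ± 0.43, adjusted p = 8.6e-05 in limma) and Sp110, which averaged 32.6 over all libraries, from 4.74, 3.24 and 7.03 to 73.6, 63.7 and 43.4 (3.37 ± 0.35). In both genes clone 7 was the lowest clone, and for Sp100 the highest clone was 2.51-fold over it. The median over chromosome 1, where both lie, was -0.60, and their values were 4.08 and 3.95 after chromosome centring. Quantile normalization gave 4.70 and 4.93, and a pseudocount of 5 gave 2.69 for Sp110.

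Of the remaining effectors, 7 of 9 tested rose (median 2.01), where 35.2% of all tested genes rose. Xaf1, a proapoptotic partner of XIAP (chromosome 11, 72301629 to 72313733 in GRCm38), rose from 250.01, 188 and 135 to 4349, 4261 and 3583 (4.45 ± 0.21, adjusted p = 3.0e-07 in limma, 21.3-fold by the means). Rnf213, a giant ubiquitin ligase gene, rose from 4816, 3638 and 3461 to 17114, 17059 and 13607 (2.01 ± 0.15). Ifi35, whose product pairs with NMI, rose from 241, 246 and 117 to 1088, 1221 and 1125 (2.58 ± 0.27). These 3 genes share chromosome 11, whose median was 0.21. Lgals3bp, a secreted glycoprotein gene, rose from 987, 738 and 629 to 3299, 3637 and 2554 (2.02 ± 0.19). Ifi44 rose from 231, 97.2 and 28.1 to 489, 348 and 389 (2.22 ± 0.62), or 1.43 without control replicate 3 and 2.92 without control replicate 1. Ifi27, a mitochondrial and nuclear membrane protein gene, rose from 1294, 1117 and 398 to 2078, 2634 and 1409.6 (1.25 ± 0.42), or 0.72 without control replicate 3. The Ifi27 call was lost without clone 5 or 6 (1.21 and 1.04), under DESeq2, under quantile normalization and with eBayes without trend.

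The other members of this group were low or overlapped. Slfn2 measured 13.3, 5.40 and 11.0 and 24.9, 17.5 and 28.6 and rose (1.23 ± 0.38, and 2.95 with quantile normalization), a call lost without clone 5 or 7 (1.18 and 1.08) and with DESeq2. Bst2 measured 3381, 4526 and 1476 and 3482, 4779 and 3199, the groups overlapping (0.41 ± 0.36, adjusted p = 0.33 in limma). Rtp4, a chaperone gene for receptor transport, measured 926, 687 and 99.4 and 556, 479 and 265 (0.05 ± 0.74). Without control replicate 3 Rtp4 passed as lower, at -0.95 (adjusted p = 0.035 in limma). Over the fits with a library left out, its values ran from -0.95 to 0.66. Epsti1 was under the filter, with 20.8, 11.9 and 0 in the controls and 4.97, 3.08 and 1.85 in the clones, and control replicate 3 had no read of it.

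**Figure D2:**
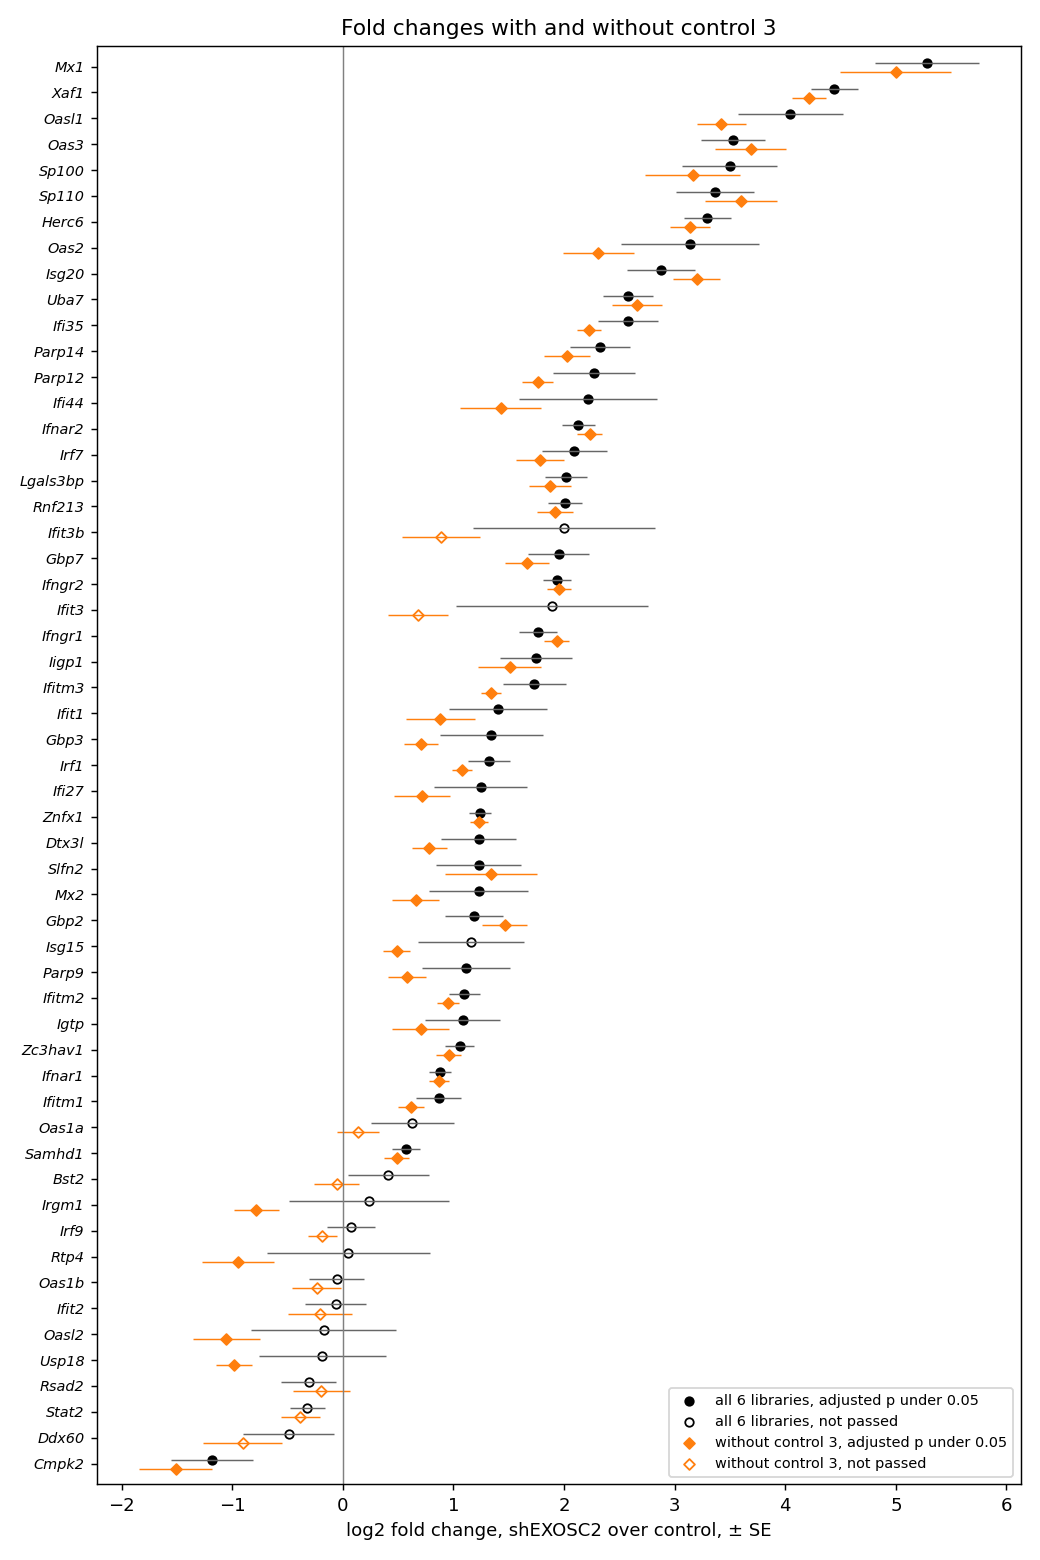
Log2 fold changes of the 55 tested genes, shEXOSC2 over control, ± SE, ordered by their value over all 6 libraries (black circles) and shown again without control 3 (orange diamonds); filled symbols passed an adjusted p of 0.05 in limma. Mx1 and Xaf1 have the highest values with either set of libraries, and Irgm1, Rtp4, Oasl2 and Usp18 pass as lower only without control 3.

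Control replicate 3 was the lowest control in 44 of 55 members, where it was lowest in 34.4% of all tested genes. It was at least 2-fold under the mean of the other two controls (on the log2 scale) in 24 of 55, against 2.09% of all tested genes. The median difference was -0.87 over the members and 0.03 over all tested genes. The widest gaps among tested members were in Ifit3 (-3.63), Ifit3b (-3.34), Irgm1 (-3.07), Rtp4 (-2.99), Oasl2 (-2.63), Oas2 (-2.49), Usp18 (-2.39), Ifi44 (-2.37) and Isg15 (-2.02). The receptor genes did not share it, with differences of -0.03 for Ifnar1, 0.30 for Ifnar2, 0.52 for Ifngr1 and 0.07 for Ifngr2. Neither did Oas3 (0.48), Gbp2 (0.83) or Isg20 (0.97), which were highest in control replicate 3. With 1 library this difference has no test.

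The ISRE core was found in 11 of the 18 members with a window that were at least 2-fold under the other controls in control replicate 3, and in 6 of the 27 with a window that were not. No test was made of this difference. When control replicate 3 was left out, 15 of the 24 members at least 2-fold under rose and 4 fell, and the median over the 24 was 0.71. Log2 fold changes among the 24 not given above were 1.34 for Ifitm3, 0.14 for Oas1a, 1.76 for Parp12 and -0.91 for Ddx60. They were 3.16 for Sp100, 2.22 for Ifi35 and -0.056 for Bst2. Of the other 31 members, 25 rose and 1 fell, and their median was 1.51. In that fit 36.4% of all tested genes rose and 39.3% fell. The groups were formed with control replicates 1 and 2, which also enter these fold changes. That choice by itself tends to lower the fold changes of the 24, so the counts and medians are given as descriptions.

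The highest clone was at least 2-fold over the lowest in 5 of 55 members, against 8.12% of all tested genes, while the highest control was at least 2-fold over the lowest in 33 of 55, against 14.4%. Clone 7 was the lowest clone in 37 of 55 members, where it was lowest in 32.7% of all tested genes. Its median difference from the other clones was -0.23 over the members. The widest differences were in Sp100 (-1.28), Oas3 (-0.99), Rtp4 (-0.96) and Ddx60 (-0.92). Leaving clone 7 out left 36 members higher and 1 lower. The share of all tested genes was not counted for that fit, and over all 6 libraries 35.2% rose and 38.3% fell.

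**Figure D3:**
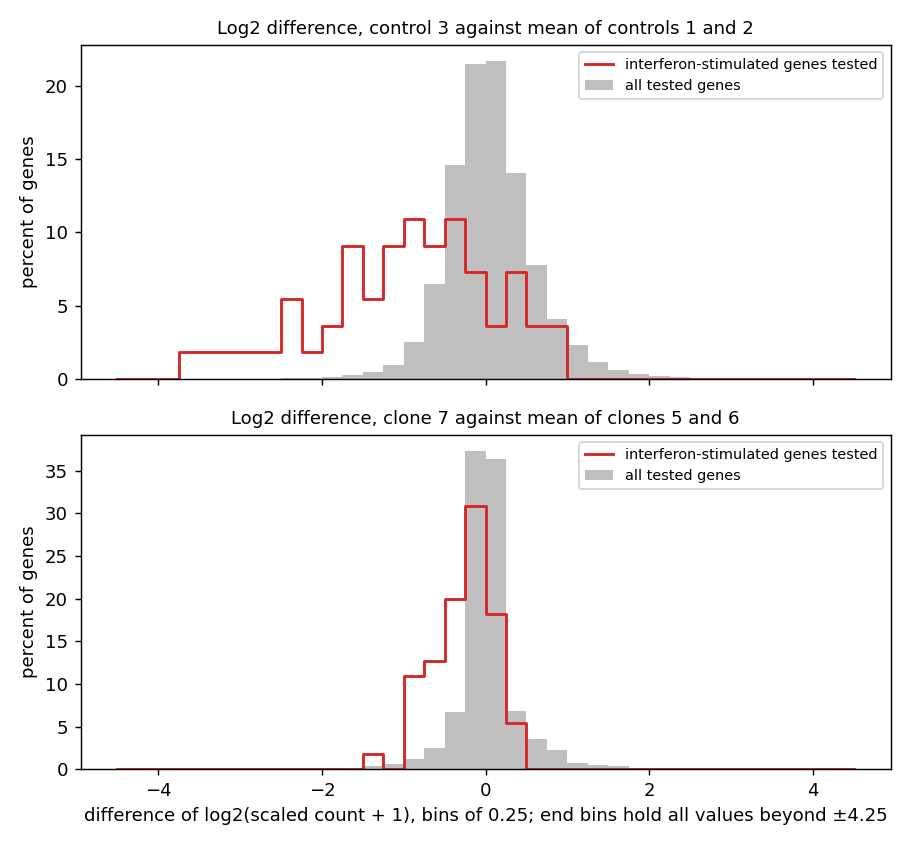
Distribution of the log2 difference between 1 library and the mean of the other two of its group, in bins of 0.25, for all 15179 tested genes (grey bars) and the 55 interferon-stimulated genes (red line), as percent of genes. The upper panel shows control 3, where the red line is moved to lower values with a median of -0.87, and the lower panel shows clone 7, with a median of -0.23.

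Interferon genes themselves were not analysed here: none of 21 ligand symbols was in the table, in which the lowest gene has 15 reads over the 6 libraries. Among 6 signalling genes outside the set, 4 rose and 1 fell, where 35.2% of all tested genes rose and 38.3% fell. Those named have the smallest p-values of the list. Jak2 rose from 329, 220.3 and 424 to 1352, 1281 and 1244 (2.04 ± 0.22, adjusted p = 3.6e-05 in limma), Tyk2 from 491, 715 and 575 to 1179, 1569 and 1423 (1.23 ± 0.17) and Il10rb, a chain of the type III receptor, from 52.1, 40.0 and 83.4 to 313, 297 and 289.7 (2.40 ± 0.27). Among 8 negative regulators, 3 rose and 2 fell, beside the same 35.2% and 38.3%, so their share of rises was near that of all genes. The phosphatase genes Ptpn2 and Ptpn6 fell, from 2255, 1899 and 1838 to 644, 593 and 582 (-1.71 ± 0.12) and from 1052, 1039 and 1224 to 179, 255 and 149 (-2.53 ± 0.20), and Ptpn11 rose from 2669, 2457 and 2898 to 6511, 6322 and 6450.3 (1.27 ± 0.10). Of 4 other IRF genes tested, 1 rose, 2 fell and 1 did not pass (median -1.08). Irf3, which relays signals from nucleic acid sensors, rose from 479, 592 and 378 to 932, 1145 and 1102 (1.15 ± 0.18). Irf8 fell from 168, 183 and 146 to 6.96, 9.25 and 9.23 (-4.14 ± 0.25).

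A further list of 73 interferon-inducible genes outside the set had 64 in the table and 52 tested. Here 32 rose and 11 fell, beside 35.2% and 38.3% of all tested genes, while 9 did not pass. Their median log2 fold change was 0.99. Nt5c3 rose from 681, 644 and 571 to 2769, 3001 and 2716 (2.16 ± 0.11, adjusted p = 4.7e-07 in limma) and Helz2 from 571, 551 and 443 to 2769.5, 2970.3 and 2222 (2.34 ± 0.15). Ifitm6 had 1 read in the controls together and measured 68.6, 123 and 67.3 in the clones. Control replicate 3 was the lowest control in 36 of the 52, against 34.4% of all tested genes. It was at least 2-fold under the others in 10, against 2.09%. Without it, 29 rose and 12 fell, against 36.4% and 39.3% of all tested genes.

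Many markers of cell type differed between the groups, where 35.2% of all tested genes rose and 38.3% fell. Of 12 embryonic stem cell markers 10 fell and 2 rose, and Zfp42 and Utf1 had no read in any clone. Nanog stood at 9901, 9275 and 9918 in the controls and 0.995, 1.03 and 0 in the clones, so several defining markers of the labelled cell type were absent or near 0 there. The summed level of the list was 122735 to 133078 in the controls and 105273 to 115529 in the clones, of which Pou5f1, one of the 2 that rose, made up 89025, 93458 and 90859.8 in the clones. Of 13 tested fibroblast or feeder cell markers 12 rose and 1 fell, with summed levels over the 14 in the table of 9929 to 11609 in the controls and 53219.6 to 69523 in the clones. Their log2 fold changes ran from -0.93, for the 1 that fell, to 3.60, with a median of 2.06. The intermediate filament gene Vim rose from 4349, 3615 and 4195 to 25287, 29365 and 28288 and the collagen gene Col1a1 from 2283, 2728 and 2269.9 to 10563, 9737 and 17425. Together, Vim and Col1a1 made up most of the summed level of this list in every library. Dcn, a matrix proteoglycan gene, rose from 14.2, 3.24 and 9.04 to 23.9, 28.8 and 31.4, and Lum, under the filter, measured 3.79, 1.08 and 2.01 and 1.99, 6.16 and 5.54. Of 5 tested blood cell markers 3 rose, Itgam, Cd14 and Cd68. Spi1 and Cd3e had no read in any clone, and Ptprc measured 11.9, 11.3 and 13.8 in the clones. Csf1r, a macrophage receptor gene, was high in control replicate 3 alone, with 9.47, 8.64 and 205 in the controls and 12.9, 9.25 and 28.6 in the clones. The summed level of that list was 695 to 1311 in the controls and 2129.9 to 2551 in the clones. The part of these changes in the interferon-stimulated genes was not tested. In bulk libraries, fewer cells of a type and less RNA per cell cannot be told apart.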

How the data were processed

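The authors deposited 1 table of gene counts scaled by library, a signal and not raw counts. The submitters' processing notes name mm10 and the tools STAR 2.5.0a, DESeq 1.22.1, HTSeq 0.5.3 and cutadapt 1.6, and the labels name poly(A) selection and a stranded kit. Each value was a whole multiple of 1 step per library (within 0.001 of a whole number for 100.0% of values), and dividing by it gave recovered reads, 21107761 to 26494985 per library. In clone 5 and control replicate 3 the step was within 0.6% of 1, so near 1 that the automatic check of the recovery did not accept those 2 columns. Because the deposited values are not counts, tests on recovered reads serve only as alternatives. Groups came from sample titles.

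Genes whose scaled counts averaged 10 or more were tested in limma 3.58.1 after a log2 transform with a pseudocount of 1 (trended eBayes), with Benjamini-Hochberg adjustment over all of them. The alternatives tried were DESeq2 1.42.0 and edgeR 4.0.16 run on the recovered reads, other pseudocounts (0.5, 5), other filters (none, or an average of 50), TMM or quantile scaling, eBayes without trend, centring each chromosome, and omitting each library in turn. The tests were tried on simulated data. Gene positions came from GENCODE M21 (GRCm38), which matched 17860 of 17912 identifiers, and promoters from RefSeq. Members and lists were chosen with earlier results of these data known. Named genes are all members, the 3 smallest p-values of each pathway list (save some genes not reported here) and Exosc2; markers were named after their values were seen. Ligands and 1 member without a row were not analysed here.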

Additional observations from a re-analysis of the deposited data

How the results depend on the processing

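Over the alternatives run for each, 32 of the 40 members that passed kept their direction and their call. These were 16 alternatives, except that Iigp1, Sp110 and Slfn2 fell under the filter at a mean of 50. Of the members that did not pass, 9 did so under at least 1 alternative. The members counted as higher were 33 to 42 when 1 library was left out and 35 to 41 otherwise, and the median log2 fold change of all tested members was 0.96 to 1.58 and 1.14 to 1.47. Among all tested genes 35.2% rose and 38.3% fell over all 6 libraries, and shares with a clone left out were not counted. Members counted as lower were 2 with chromosome centring (Cmpk2 and Stat2) and 0 to 5 when 1 library was left out. The limma count was 0 without control replicate 1, control replicate 2 or clone 6, where 0, 1 and 2 members were lower at an unadjusted p under 0.05; edgeR and DESeq2 each gave 1 over all libraries. Direction turned only for members that did not pass over all 6 libraries. With quantile normalization the log2 fold change was -0.13 for Irf9, 0.40 for Ifit2, 0.36 for Oas1b and 0.35 for Rsad2. On recovered reads, edgeR and DESeq2 gave -0.32 and -0.30 for Irgm1 and -0.43 and -0.41 for Rtp4, and chromosome centring gave -0.10 for Rtp4. With 1 library left out, the values ran from -0.19 to 0.26 for Irf9, -0.20 to 0.22 for Ifit2, -0.24 to 0.11 for Oas1b, -1.05 to 0.39 for Oasl2, -0.78 to 0.89 for Irgm1, -0.98 to 0.30 for Usp18, -0.95 to 0.66 for Rtp4 and -0.056 to 0.75 for Bst2. The cause was not tested. No paired analysis was possible because the groups share no replicate number. The 3 libraries per group limit the precision, and genes with few reads, such as Epsti1, were not tested.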
